A study of Mus musculus with 12 samples.

Results

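The small heat shock protein genes were examined in mouse C2C12 myoblasts, a skeletal muscle cell line that grows as single cells in serum and fuses into myotubes once serum is withdrawn. The 7 genes Hspb1, Hspb2, Hspb3, Hspb6, Hspb7, Hspb8 and Cryab were chosen by gene symbol from the 10289 genes listed in at least 1 of the 3 deposited tables of differentially expressed genes, with earlier results of these data known. A gene stands in a table because its adjusted p-value in the authors' own comparison was at most 0.05, so presence in a table is part of how the genes were chosen and is given as a description. RNA-seq had been done on cells that overexpressed GFP as a control, either in growth medium (GM, day 0) or after 4 days in differentiation medium (D4), and on cells in GM that overexpressed METTL3 or METTL14. Each of these 4 groups had 2 libraries. Every group carried an overexpression construct, and the GFP cells in GM were the control of each methyltransferase line as well as the starting point of differentiation. A further 4 libraries of m6A immunoprecipitation and its input, from the GFP control at both stages, were not analysed here. The titles of the METTL14 libraries give day 0 and another label of the same libraries gives day 4, and the titles were followed.

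Small heat shock proteins are chaperones that work without ATP. They assemble into oligomers through a shared alpha-crystallin domain, hold unfolding proteins in a soluble state and pass them on to the ATP-dependent chaperones of the HSP70 family. Striated muscle is known for a large set of them, several of which bind desmin, actin, titin or filamin at the Z-disc and protect the sarcomere during contraction. METTL3 and METTL14 form the complex that places N6-methyladenosine (m6A) on mRNA.

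The heat shock factors bind repeats of a short GAA unit, so the sequences before the members' start sites are shown first. A promoter window of 300 bases, 250 before and 50 after the transcription start, was found in RefSeq (GRCm38.p6) for 5 of the 7 members. Hspb6 had 2 windows because RefSeq gives it 2 start sites. Cryab and Hspb2 had no entry. Of 4 motifs searched on both strands, GAANNTTC was found for 4 of these 5 members. It is a pair of GAA units facing each other, taken here as part of a heat shock element and not as a whole one. The pair is set in capitals below in lines read 5′ to 3′ on the strand of each gene. Hspb1 and Hspb6, the members listed for both methyltransferases, are given with the 250 bases before the start.
Hspb1, chr5:135887669-135887918, plus strand: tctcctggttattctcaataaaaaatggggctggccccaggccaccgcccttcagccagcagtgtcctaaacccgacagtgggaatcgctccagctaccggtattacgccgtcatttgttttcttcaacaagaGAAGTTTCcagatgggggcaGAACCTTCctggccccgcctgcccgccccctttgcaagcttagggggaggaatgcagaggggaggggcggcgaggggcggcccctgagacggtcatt
Hspb6, chr7:30553051-30553300, plus strand, before the downstream start: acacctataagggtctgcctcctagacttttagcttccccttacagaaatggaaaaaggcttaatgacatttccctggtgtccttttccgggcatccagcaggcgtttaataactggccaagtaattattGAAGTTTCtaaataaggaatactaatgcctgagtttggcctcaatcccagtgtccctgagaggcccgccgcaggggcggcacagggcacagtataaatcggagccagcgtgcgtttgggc
For Hspb3 and Hspb8 only the 30 bases around the match are given.
Hspb3, chr13:113663882-113663911, minus strand: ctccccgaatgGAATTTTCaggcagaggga
Hspb8, chr5:116422844-116422873, minus strand: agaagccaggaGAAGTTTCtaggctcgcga

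Hspb1 held 2 matches to GAANNTTC, whose first bases lay at -117 and -97 from the transcription start. The matches of Hspb3 and Hspb6 began at -224 and -120, and that of Hspb8 began at +3, just past the start. Hspb7 and the upstream start of Hspb6 had none. Both Hspb6 windows lie inside the span of the gene in the GENCODE annotation, so the sequence before that annotated start was not searched. Across RefSeq, 2582 of 32851 windows of the same length held GAANNTTC (7.86%), and 0.344% held 2 or more. Counted by gene, these shares were 9.04% and 0.407%. The motifs were chosen after the windows had been read, so the matches of the members cannot be tested against these shares. The opposite arrangement TTCNNGAA was present in 8.52% of windows and in no member. A run of alternating units longer than a pair holds both arrangements, so no window of a member held one without mismatch. The E-box CANNTG, the element read by the myogenic factors, is common, occurring in 72.3% of windows, and was found at -138 and -109 in Hspb1, at -76 and -54 in Hspb3, at -17 in Hspb7 and at -132 in Hspb8. The TATA box TATAAA, present in 13.6% of windows, lay at -11 in Hspb3 and at -29 before the downstream start of Hspb6. The E-boxes of Hspb1 did not overlap its matches to GAANNTTC. These matches are descriptions of letters, and no binding was measured in these data.

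**Figure D1:**
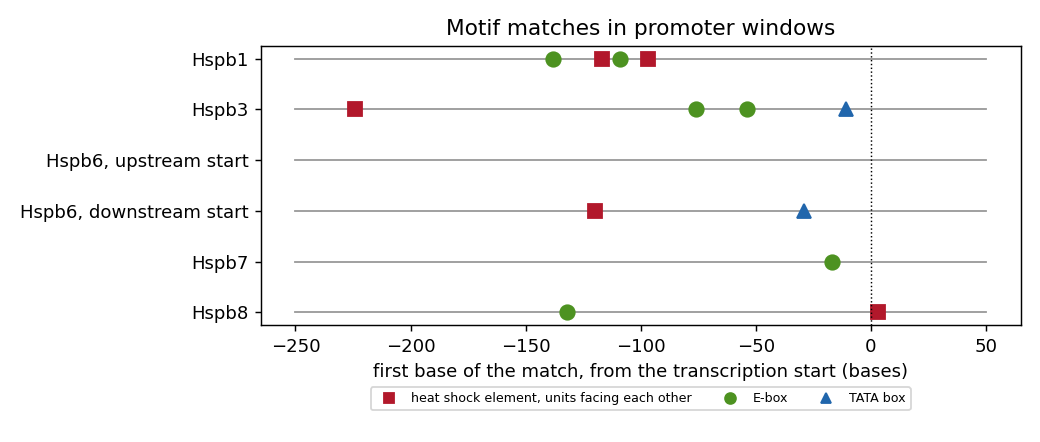
Motif matches in the 6 promoter windows of 5 small heat shock protein genes. The horizontal axis is the first base of each match in bases from the transcription start (dotted line), and each grey line is a window. Squares mark the pair of GAA units GAANNTTC, named heat shock element in the legend. Circles and triangles mark the E-box and the TATA box. Hspb1 is the only one of these windows with 2 matches to GAANNTTC.

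The level of each member was taken as the authors' mean normalized count, 1 value per gene, the same in each table that lists the gene. Which libraries entered the mean is not stated. If they were those of the 4 groups, most were of cells in GM, and the mean leans towards growing cells. It has no error, gives no level for a single group or stage, and was divided by the length of the gene's merged exons so that genes could be set beside each other. Among the 9817 genes of the D4 table with a known length, the median was 101.2 mean normalized counts per kb, with quartiles of 28.39 and 255.7. Of the 7 members, 6 were above this median and 4 were above the upper quartile, Hspb6 only just. Without division by length Hspb2 and Hspb7 were below the median, above 26.7% and 49.7% of the D4 table, and among genes with a mean of at least 100 normalized counts Hspb2 was above 48.9%. On this scale the members spanned a 95.1-fold range, from Cryab at the top to Hspb3 at the bottom.

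Cryab, which encodes alphaB-crystallin, the chaperone that binds desmin and titin, had the highest level of the 7, 2189 mean normalized counts per kb (3238 mean normalized counts over 1479 bp of exon). This was above 98.1% of the D4 table. Hspb1, an actin-binding chaperone that is phosphorylated under stress, followed at 1371 per kb (1413 mean normalized counts over 1031 bp), above 96.5% of those genes. Hspb8, which works with Bag3 in the autophagic removal of damaged filamin, stood at 956.7 per kb (1866 mean normalized counts over 1950 bp), above 94.4%. These 3 genes formed an upper tier, with steps of 1.6-fold from Hspb1 to Cryab and 1.43-fold from Hspb8 to Hspb1 in the level per kb, and they took 84.5% of the summed mean normalized counts of the 7 members.

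A gap of 3.7-fold in the level per kb separated Hspb8 from the next gene. Hspb6, a chaperone of smooth, cardiac and skeletal muscle that is a target of cyclic-nucleotide-dependent kinases, had 258.4 per kb (594.1 mean normalized counts over 2299 bp), above 75.2% of the D4 table. Hspb7, a filamin-binding member of heart and skeletal muscle, had 166.2 per kb (460.2 mean normalized counts over 2769 bp), above 63.8%. Hspb2, known as a binding partner of the myotonic dystrophy kinase, had 149.3 per kb (124.5 mean normalized counts over 834 bp), above 61%. Hspb7 and Hspb2 were separated by a ratio of 1.11, and with no spread between libraries neither this step nor any other in the order can be tested. Hspb3, which forms a complex with Hspb2 in muscle, lay apart at 23.01 per kb (17.97 mean normalized counts over 781 bp), above 22.4% of the D4 table and 6.49-fold below Hspb2.

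**Figure D2:**
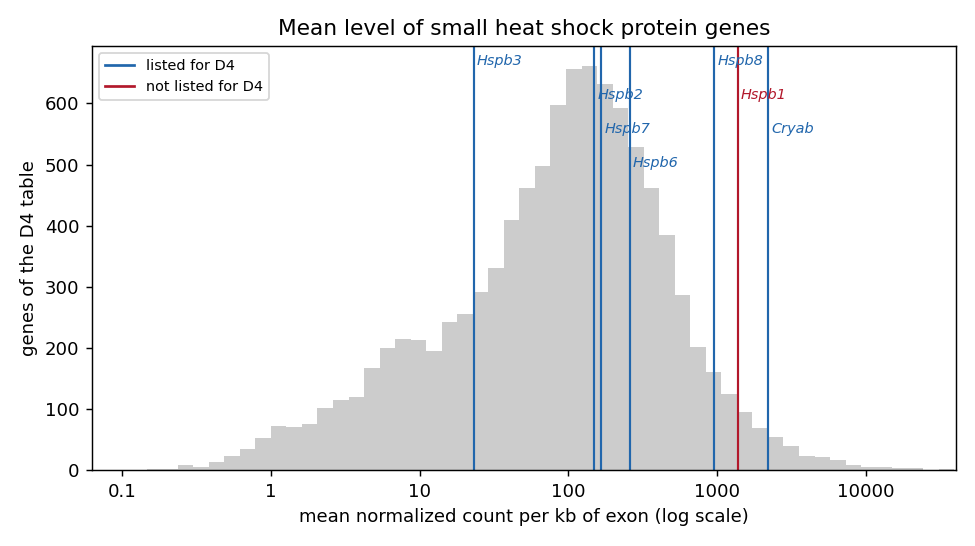
Mean level of the small heat shock protein genes among the genes of the D4 table. The horizontal axis is the authors' mean normalized count per kb of exon on a log scale, the grey bars count genes of the D4 table, and each vertical line is a member, blue where it is listed for D4 and red where it is not. Cryab, Hspb1 and Hspb8 sit in the upper tail between 956.7 and 2189 per kb, and Hspb3 sits alone below the median at 23.01.

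The members are short genes on 5 chromosomes, encoding between 154 and 209 amino acids by the GENCODE M21 annotation of GRCm38. Hspb1 (ENSMUSG00000004951) spans chr5:135887919-135889563 on the plus strand and Hspb8 (ENSMUSG00000041548) chr5:116408491-116422864 on the minus strand. Hspb6 (ENSMUSG00000036854) lies at chr7:30552178-30555443 on the plus strand, Hspb7 (ENSMUSG00000006221) at chr4:141420779-141425311 on the plus strand, and Hspb3 (ENSMUSG00000051456) at chr13:113662896-113663676 on the minus strand. Hspb3 consists of 1 exon and Hspb2 of 2, whereas Hspb1, Hspb6, Hspb7 and Hspb8 have 3 in the transcript with the longest coding sequence.

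Hspb2 and Cryab are neighbours, read in opposite directions. Hspb2 (ENSMUSG00000038086) spans chr9:50751078-50752354 on the minus strand and Cryab (ENSMUSG00000032060) chr9:50751325-50756636 on the plus strand. Of 6 annotated Cryab transcripts, 2 start inside Hspb2, and the nearest Cryab start outside Hspb2 is 553 bp from the start of Hspb2. The gene bodies share 1030 bp, of which 252 bp are exonic in both genes, equal to 30.2% of the exon length of Hspb2 and 17% of that of Cryab. Whether reads were counted by strand is not given in the sources used here, so in this overlap reads of the 2 genes may not be told apart and the value of Hspb2, the lower of the pair, is uncertain. Hspb6 also shares exon sequence with other genes, 122 bp with Proser3 and 3 bp with Lin37 on the opposite strand and 77 bp with Gm38670 on its own strand. The exons of Hspb1, Hspb3, Hspb7 and Hspb8 overlap no other annotated gene.

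**Figure D3:**
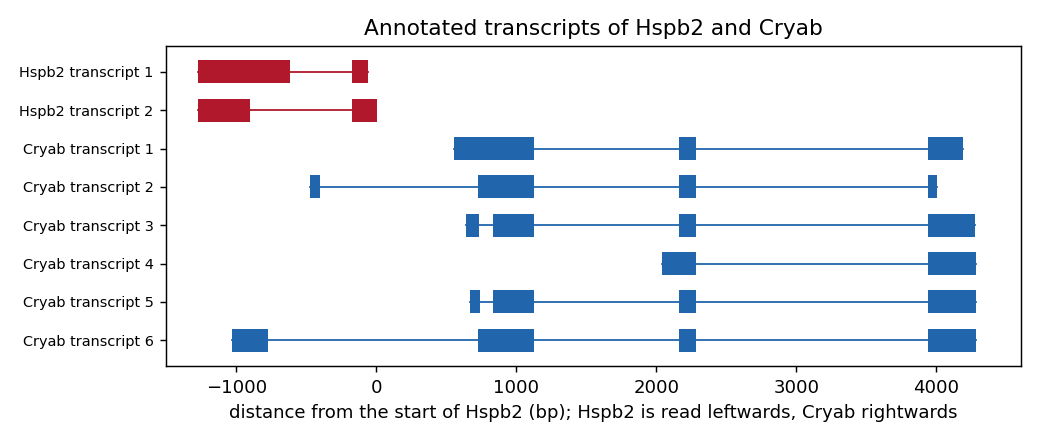
Annotated transcripts of Hspb2 (red) and Cryab (blue). The horizontal axis is the distance in bp from the start of Hspb2, boxes are exons and lines are introns. Of the 6 Cryab transcripts, 2 begin to the left of the Hspb2 start, inside the gene, and the others begin at least 553 bp to the right of it.

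The 3 comparisons address differentiation and the effect of adding each methyltransferase to growing cells, and each shares the GFP cells in GM as its control. The D4 table listed 6 of the 7 members, Cryab, Hspb8, Hspb6, Hspb7, Hspb2 and Hspb3, with 95.5% of the 10289 genes listed in any table standing in it. Hspb1 was the member not listed for D4, which says only that it did not pass the authors' limit. The METTL3 table listed 2 members, Hspb1 and Hspb6, against a background of 17.0% of the same genes. The METTL14 table listed the same 2 members, Hspb1 and Hspb6, against a background of 10.7%. Hspb6 was thus listed in each of the 3 tables, Hspb1 in those of the methyltransferases, and Cryab, Hspb8, Hspb7, Hspb2 and Hspb3 in the D4 table. The direction and size of these changes stand in the tables only as the authors' own fold changes, which were not used, and with no value per library none could be computed or tested anew. The libraries are bulk, so a change in the share of cells that express a gene cannot be told apart from a change in RNA per cell.

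Every member was listed in some table, so whether listing goes with level was not tested. The members listed for the methyltransferases did not separate by level from those listed for D4 only. Hspb1 and Hspb6 had mean normalized counts of 1371 and 258.4 per kb, with Cryab above both and Hspb8 between them. Hspb3, with the lowest mean, 17.97 normalized counts, was nonetheless listed for D4.

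The sequence GGACT, a common form of the motif at which m6A is placed, was counted on the strand of the longest annotated transcript of each member. Hspb8 had 4 copies, Hspb3, Hspb6 and Hspb7 had 3 each, and Hspb1, Hspb2 and Cryab had 1 each. Over the D4 table the median was also 3 copies, in a median transcript of 3268 bp. Per kb of transcript the count was 3.84 in Hspb3, above 99.6% of the D4 table, and 2.2 in Hspb8, above 92.5%. The rank of Hspb3 rests on its short transcript of 781 bp, since its number of copies equals the median. Hspb6 had 1.52, Hspb2 1.29, Hspb1 1.08, Hspb7 1.08 and Cryab 0.895 copies per kb, beside a median of 1.02 over the D4 table, in which 91.4% of 9817 transcripts held at least 1 copy. Of the members listed for both methyltransferases, Hspb6 had fewer copies per kb than Hspb3 and Hspb8 and more than Hspb2, Hspb7 and Cryab. Hspb1 had as many per kb as Hspb7, fewer than Hspb2 and more than Cryab. A copy of these letters is not a methylated site.

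Other chaperones were taken from a list of 67 genes in 7 groups, of which 50 were listed in any table. Of these 50, the D4 table listed 48 (96%), that of METTL3 listed 9 (18%) and that of METTL14 listed 4 (8%), beside 95.5%, 17.0% and 10.7% of the genes listed in any table. In the group counts that follow, genes listed in no table stay in the total, so those counts have another base than these shares. Of the genes listed in any table, D4 held 100% in the HSP70 and HSP110, HSP40, HSP90 and chaperonin groups. It held 85.7% in the BAG group and 66.7% of the heat shock factors. The METTL3 shares, with the groups in that order, were 0, 44.4, 10, 20, 14.3 and 33.3%. Those of METTL14 were 9.09% for HSP70 and HSP110, 33.3% for HSP40 and 0% for the rest of these groups. The 4 other genes grouped with the small heat shock proteins on the chaperone list, Cryaa, Hspb9, Odf1 and Hspb11, were listed in no table. No level is known for them here. Over the 50 listed chaperones the median was 463.3 mean normalized counts per kb, beside 258.4 for the small heat shock proteins.

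In the HSP70 and HSP110 group, to which small heat shock proteins hand their clients, 11 of 15 genes were listed for D4, 0 for METTL3 and 1 for METTL14, Hspa4l. Its highest levels per kb were those of mitochondrial Hspa9 (2658), constitutive Hspa8 (2244) and Hspa4 (1326). Cryab, at 2189, was therefore close to Hspa8. Of 13 HSP40 cochaperones, which stimulate the HSP70 ATPase, 9 were listed for D4, 4 for METTL3 and 3 for METTL14. Dnaja2 (1590 per kb), Dnajb1 (297 per kb) and Dnajb5 (73.02 per kb) stood in each of the 3 tables, as Hspb6 did, and Dnajb11, an HSP40 of the endoplasmic reticulum, had 565.2 per kb and was listed for D4.

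The HSP90 group, which matures kinases and, through Unc45b, myosin, had 10 of 12 genes listed for D4, 1 for METTL3 and 0 for METTL14. Hsp90ab1, the cytosolic form made without stress, had the highest level per kb on the chaperone list, 16644, and was the gene listed for METTL3, followed by Hsp90b1 of the endoplasmic reticulum (3925) and the adaptor Stip1 (3011). Each of the 10 chaperonin genes was listed for D4, 2 of them for METTL3 and 0 for METTL14. These fold actin and tubulin in the cytosol or proteins in mitochondria, and the highest were Cct2 (3958 per kb, also listed for METTL3), Cct5 (2585) and mitochondrial Hspd1 (2135).

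Of 9 genes of the BAG and chaperone-assisted autophagy group, 6 were listed for D4, 1 for METTL3 and 0 for METTL14. Sqstm1, the autophagy receptor p62, had 2343 per kb and was listed for METTL3 and not for D4. Bag1 had 1349 per kb, and Bag3, the partner of Hspb8, had 744.9 per kb beside 956.7 for Hspb8, with both partners listed for D4 and for neither methyltransferase. Among 4 heat shock factors, the regulators that bind GAA repeats, Hsf1 (227.8 per kb) and Hsf4 (45.92 per kb) were listed for D4 and Hsf2 (79.6 per kb) for METTL3.

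**Figure D4:**
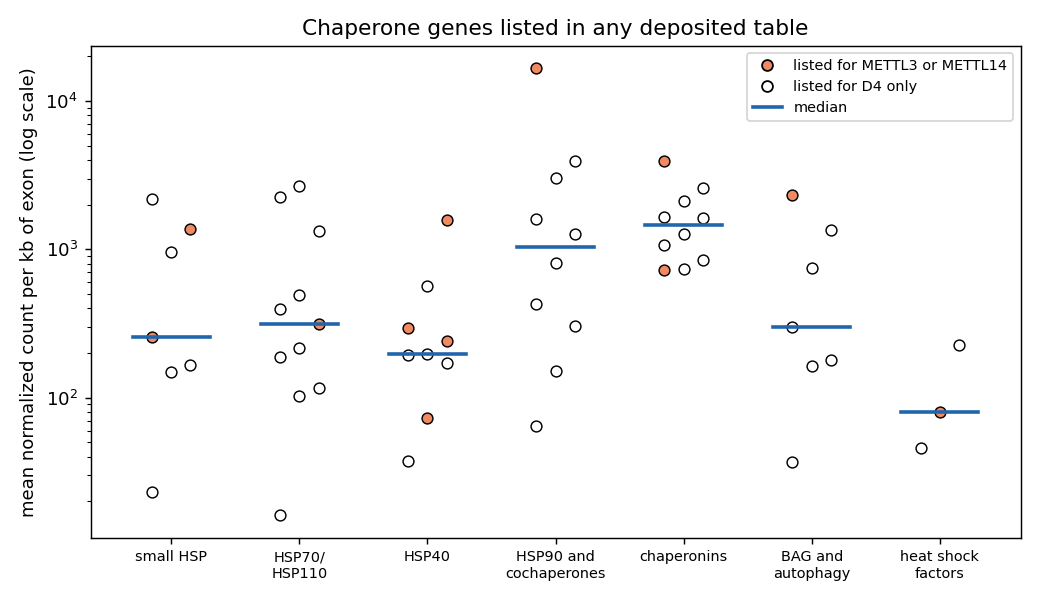
Level of chaperone genes listed in any deposited table, by group. The vertical axis is the authors' mean normalized count per kb of exon on a log scale, each circle is a gene, filled where it is listed for METTL3 or METTL14 and open where it is listed for D4 only, and each bar is the median of the listed genes of a group. The median of the small heat shock proteins is 258.4, between those of HSP40 (197) and the BAG group (300.9).

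The 6 muscle markers Myod1, Myf5, Des, Myog, Acta1 and Myh3 were each listed in at least 1 table, with levels between 284.7 and 34861 mean normalized counts per kb. None of 5 markers of blood, endothelium, epithelium, adipocytes and Schwann cells was listed, which gives no level for them, so the presence of other cell types could not be checked. Mettl3 was listed in the METTL3 table (5827 mean normalized counts) and neither in the METTL14 table nor for D4. Mettl14 was listed in the METTL14 table (6250 mean normalized counts) and for D4, and not in the METTL3 table. Their level in each library could not be checked.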

How the data were processed

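RNA-seq of C2C12 cells was used from 4 groups of 2 libraries, grouped by the sample titles. The authors used hisat2 to align reads to GRCm38, featureCounts with Ensembl genes to count them, and DESeq2 to compare groups. The versions of these tools are not given in the sources used here. The 3 deposited tables list genes with an adjusted p-value of at most 0.05. The deposited mean normalized count is a signal that the authors averaged over libraries after division by size factors. A gene in several tables had the same mean in each, to within a relative difference of 4.77e-10, so the mean comes from 1 common set of libraries. The 3 tables between them compare all 4 groups, so that set would hold all 4. Most of those libraries are of cells in GM. Which libraries entered is not stated. The remaining columns (log2 fold change, its standard error, the test statistic and both p-values) hold the authors' own comparisons and were not used. Depth per library is not known from these tables, no value per library was analysed, and no test was run.

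Means were divided by merged exon length (GENCODE M21, GRCm38, not the authors' annotation), available for 10282 of 10289 genes. Percentiles are the percent of D4-table genes below a value. Values were computed with SciPy 1.17.1, NumPy 2.4.6 and pandas 2.3.3 under Python 3.11.15. Percentiles and motif searches were tested on simulated data. The members and gene lists were chosen with earlier results of these data known, and the promoter motifs after the windows had been read. The genes named are the members, their overlapping neighbours, Mettl3 and Mettl14, the 3 chaperones of highest level per kb in each group, and the markers. Hspa4l, Dnajb5 and the 4 unlisted genes grouped with the small heat shock proteins were named after their values were seen.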

Additional observations from a re-analysis of the deposited data

How the results depend on the processing

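The median percent of D4-table genes below the members, 75.2, which is the value of Hspb6, was 71.5 with the length of the longest transcript, 73.2 among protein-coding genes, 73.5 among genes with a mean of at least 10 normalized counts, 67.5 among those with at least 100, 56.8 without division by length, and 75.5 among genes of any table. Of 42 alternative values for single members, 28 lay outside the 95% exact binomial interval (Clopper-Pearson, counting error over genes only) of the reported value. Hspb6 was above 75.2% of the D4 table and so lay just over the upper quartile, which it did not reach in 5 of 6 alternatives. Without division by length Hspb2 moved from 61 to 26.7, Hspb7 from 63.8 to 49.7 and Hspb3 from 22.4 to 10.7, and among genes with at least 100 normalized counts Hspb2 stood at 48.9 and Hspb3, itself under that minimum, at 3.25. The order of the members was the same in 5 of 6 alternatives, and without division by length Hspb8 stood above Hspb1. No paired analysis was possible because the tables hold no value per library, and for the same reason no library could be left out. Because the mean is 1 value over several libraries, a member high in some and low in others cannot be told apart from one at an even level.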
